A study of Mus musculus with 4 samples.

Results

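The integrated stress response and the unfolded protein response were followed through 41 genes in mouse embryos that carry a mutation in Btaf1. The genes were taken by name: every probe of the array whose file symbol was one of the 41 was a member, out of 21557 genes with a symbol on the array. Of the 41 genes, 39 had at least 1 probe bright enough to test, and each was represented by its brightest such probe. Embryos with V1330M, a point mutation of Btaf1 induced by the mutagen ENU and written Btaf1-/- in the design text, were compared with Btaf1+/+ embryos. BTAF1 is an ATPase that takes the TATA-binding protein off DNA. Whole embryos were pooled by genotype at 3 to 5 somites where possible, and all mice were hybrids of C57BL/6J and FVB/NJ with 50 to 90% FVB/NJ. The stage_matched pools were composed by somite count, whereas the age_matched pools held as many litter mates as could be had, at the price of stage differences of up to 5 somites. Each set was 1 mutant pool against 1 wild-type pool on 2 two-colour arrays. Mutant cRNA carried Cy5 on replicate 1 of a set, and the dyes were exchanged on replicate 2. The 2 arrays of a set share their RNA, so n = 2 sets throughout. The labels give neither the number of embryos in a pool nor whether yolk sacs were kept.

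Cells answer amino acid shortage, heme shortage, double-stranded RNA or misfolded protein with 4 kinases that phosphorylate the translation factor eIF2. Translation then slows in general while that of the factor ATF4 rises, and ATF4 turns on genes of amino acid uptake and synthesis. Misfolded protein in the endoplasmic reticulum (ER) is sensed by PERK, which is one of these kinases, and by IRE1 and ATF6, which act through the factors XBP1 and cleaved ATF6 on genes of ER chaperones and of ER-associated degradation (ERAD). In the early mouse embryo the visceral endoderm of the yolk sac is a strongly secretory tissue. Much of the control of these pathways lies in translation, splicing and protein cleavage, which a probe on the transcript does not read.

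Both arms have known DNA elements, and neither element was found in both the ER chaperones and the ATF4 targets. No expression value entered the search. The lists hold genes named as targets of these pathways, so the counts describe the lists and are no test. Not every listed gene held its element, and Sdf2l1 and Atf5 held neither. RefSeq start sites (GRCm38.p6) were found for 38 of the 41 genes, all but Atf6, Slc7a5 and Hyou1. The 250 bases upstream of each were searched on both strands. The ER stress element, searched as CCAAT and CCACG with any 9 bases between them, was found in 7 of 11 ER chaperones and in the ERAD gene Syvn1. It was in 0 of 16 ATF4 targets and in 0.13% of all 27025 genes in the table. The sequences below run 5′ to 3′ on the strand of the gene, with the fixed letters of the element in capitals. CGTGG and ATTGG in capitals mark it on the opposite strand.
Hspa5 (chr2:34772005-34772063, plus strand): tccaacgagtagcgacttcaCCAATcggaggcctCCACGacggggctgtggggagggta
Creld2 (chr15:88819500-88819558, plus strand): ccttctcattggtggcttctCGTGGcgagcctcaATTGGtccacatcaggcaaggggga
Pdia6 (chr12:17266471-17266529, plus strand): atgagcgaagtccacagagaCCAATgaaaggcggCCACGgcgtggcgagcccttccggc
Dnajc3 (chr14:118937807-118937865, plus strand): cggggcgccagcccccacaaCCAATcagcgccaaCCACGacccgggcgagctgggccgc
Canx (chr11:50325780-50325838, minus strand): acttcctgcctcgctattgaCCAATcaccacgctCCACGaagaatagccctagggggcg
Calr (chr8:84847055-84847113, minus strand): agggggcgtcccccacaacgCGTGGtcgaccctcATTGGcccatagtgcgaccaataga
Syvn1 (chr19:6046512-6046570, plus strand): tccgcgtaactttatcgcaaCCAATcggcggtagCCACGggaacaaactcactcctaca
The remaining carrier, Hsp90b1, held the element once on each strand, at bases -212 to -194 and -107 to -89 from the start.

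The C/EBP-ATF element bound by ATF4, searched as TGATGNAA, showed the other split. It was present in 6 of 16 ATF4 targets, in the ERAD gene Herpud1 and in 0 of 11 ER chaperones, against 3.91% of all genes in the table. Capitals again mark the fixed letters, and TT with CATCA is the element on the opposite strand.
Asns (chr6:7693210-7693252, minus strand): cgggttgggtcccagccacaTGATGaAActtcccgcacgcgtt
Atf3 (chr1:191183416-191183463, minus strand): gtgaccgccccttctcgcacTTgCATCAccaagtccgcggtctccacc
Chac1 (chr2:119351029-119351076, plus strand): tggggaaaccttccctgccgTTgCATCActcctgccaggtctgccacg
Vldlr (chr19:27216800-27216847, plus strand): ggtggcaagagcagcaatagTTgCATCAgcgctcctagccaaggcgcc
Slc7a11 (chr3:50443633-50443699, minus strand): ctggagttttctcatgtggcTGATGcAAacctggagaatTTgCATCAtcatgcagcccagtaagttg
Herpud1 (chr8:94386297-94386344, plus strand): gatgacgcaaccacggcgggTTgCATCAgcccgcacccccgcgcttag
Nupr1 was the sixth ATF4 target with the element, at bases -110 to -103. The elements TGACGTGG and TGACGTCA, in turn, were in 0 of the 38 upstream sequences each, beside 0.603% and 1.77% of all genes. A match describes these letters in this window, and no binding was measured.

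Each value below is the log2 of the mutant signal divided by the wild-type signal, and a mean averages both sets, with their SD. Ratios were computed from scanner intensities after background correction and removal of the intensity-dependent dye bias. Between 52.9% and 59.6% of 43379 spots were well above background in each dye and array, and 0 were saturated. Genes were tested with limma on the 2 set means, with p values adjusted over all 21930 tested probes and 0.05 as the threshold. This rule called 2.14% of 13652 genes higher in the mutant and 2.83% lower. One array weighed heavily on it: without age_matched replicate 1 the shares were 0.0513% and 0.0806%. The p values set each mean ratio against an error that limma takes mostly from all tested probes. A probe's own spread between 2 pairs of pools has 1 degree of freedom, against 7.2 for that shared part. In pooled whole embryos fewer cells of a type and less RNA per cell cannot be told apart.

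At the brightest probe, members showed no common shift. Past the threshold, 2 of 39 rose, the factor Atf5 and the ER chaperone Hyou1, and 1 fell, the ER protein Sdf2l1, while 36 did not pass. Beside array-wide shares of 2.14% and 2.83%, these counts at the brightest probe do not set the list apart. With the median of each gene's probes, 6 of 39 were called lower: Dnajc3, Hsp90b1, Pdia3, Pdia6, Sdf2l1 and Vldlr. Atf5 and Hyou1 were called higher. That fit called 5.63% of all genes lower and 4.03% higher. All of these members but Vldlr and Atf5 belong to the ER chaperones. At the brightest probe the median member ratio was -0.06, against 0.02 for all genes. There, 22 of 39 were negative (56.4%, against 46.0% of all genes). The 2 members called with 1 sign on all 4 arrays were Atf5 and Sdf2l1, a kind of call made for 2.09% of all genes upward and 2.7% downward. Hyou1 differed in sign between arrays, as detailed below. Whatever their p, 3 members were positive on all 4 arrays and 6 negative, which is 7.69% and 15.4% of those tested, against 14.8% and 13.9% of all genes.

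**Figure D1:**
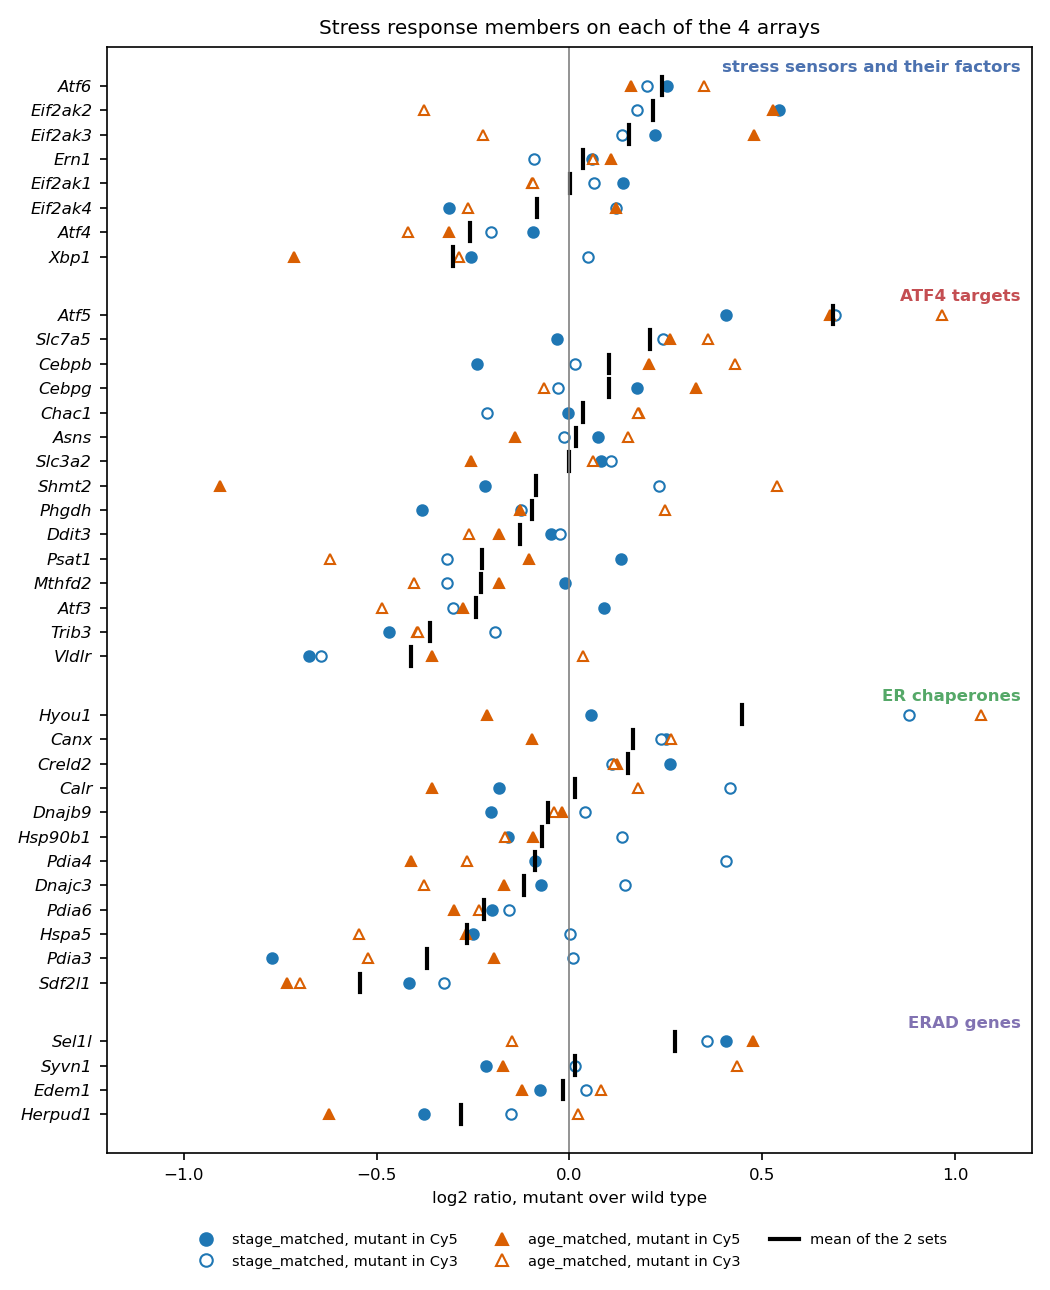
The log2 ratio of mutant over wild type (x axis) is plotted for the 39 tested members (y axis) on each of 4 arrays, by role; circles are the stage_matched and triangles the age_matched arrays, filled with the mutant in Cy5 and open with it in Cy3, and the black bar is the mean of the 2 sets. Atf5 lies above 0 on all 4 arrays and Sdf2l1 below 0, while most members straddle 0.

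The first group holds the kinases and sensors that start the response and the factors they act on. None of its 8 members passed (0 higher, 0 lower), the median was 0.02 (-0.064 with median centring, which takes the median of all genes from 0.02 to -0.06), and 5 of 8 were positive. Atf6, the ER sensor that becomes a transcription factor when cleaved, was the highest. The stage_matched arrays read 0.25 and 0.20 and those of the other set 0.16 and 0.35, with a mean of 0.24 ± 0.02 (SD, n = 2; limma adjusted p = 0.166). All 4 arrays were thus positive, and the second Atf6 probe read 0.10. Xbp1, whose transcript is spliced by IRE1 into the active factor, was the lowest, with -0.26 and 0.05 for the stage_matched pools and -0.71 and -0.29 for the age_matched pools. It averaged -0.30 ± 0.28 (SD, n = 2; limma adjusted p = 0.165), and 1 array lay above 0. The probe does not tell the spliced from the unspliced transcript.

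The 4 eIF2 kinases spread around 0. Eif2ak2 (PKR, which senses double-stranded RNA) read 0.54, 0.17, 0.53 and -0.38 on stage_matched replicates 1 and 2 and age_matched replicates 1 and 2, the order also used below, with a mean of 0.22 ± 0.20 (limma adjusted p = 0.259). Both high arrays had the mutant in Cy5. Eif2ak3 (PERK) had a mean of 0.15, Eif2ak1 (HRI, the heme-regulated kinase) 0.00 (0.0025) and Eif2ak4 (GCN2, which senses uncharged tRNA) -0.08. Ern1, the gene of IRE1, read 0.03 at a dim probe (mean log2 intensity 7.16). Atf4 itself was negative on all 4 arrays, at -0.09, -0.20, -0.31 and -0.42, with a mean of -0.26 ± 0.15 (limma adjusted p = 0.170). It did not pass the threshold.

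Of 17 ATF4 targets 15 were tested; Atf5 rose, 14 did not pass, and 9 of 15 were negative, with a median of -0.09. Atf5, a relative of ATF4 that is itself translated under eIF2 phosphorylation, read 0.41, 0.69, 0.68 and 0.97. Every array was positive, and the mutant signal lay above the wild-type signal in both dye orientations: on the normalized log2 scale it was 10.53, 10.89, 10.68 and 10.73 in the mutant and 10.12, 10.2, 10 and 9.766 in the wild type. The mean of 0.68 ± 0.19 (SD, n = 2; limma adjusted p = 0.0166) corresponds to 1.61-fold. Atf5 was not called without age_matched replicate 1 (0.76; limma adjusted p = 0.160) or without background correction (limma adjusted p = 0.0597). Its 1 probe (A_51_P269216) lies on chromosome 7, 52067718 to 52067777 (mm9). Exon and UTR annotation of that build was not used here.

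Other factors downstream of ATF4 did not rise with Atf5. Ddit3 (CHOP, a factor of ER stress death) read -0.05, -0.02, -0.18 and -0.26, low on all 4 arrays, with a mean of -0.13 ± 0.13 (limma adjusted p = 0.479). Atf3, a stress-induced repressor, read 0.09, -0.30, -0.28 and -0.49 (mean -0.24 ± 0.20; limma adjusted p = 0.207), so that 3 of 4 arrays were negative. Cebpb and Cebpg, bZIP partners of ATF4, had means of 0.10 and 0.10 at the brightest probe. The other Cebpb probe read -0.08, and the other Cebpg probes -0.13 and -0.16. Trib3, a pseudokinase that restrains ATF4 and CHOP, read -0.47, -0.19, -0.40 and -0.39. This was negative on all 4 arrays, with a mean of -0.36 ± 0.04 (limma adjusted p = 0.0637). With the software's processed signals, Trib3 passed at -0.63 (limma adjusted p = 0.0152), but its second probe read 0.03. The Ddit3 and Trib3 probes were dim, at mean log2 intensities of 7.56 and 7.45, against 10.36 for Atf5. Atf5, Trib3 and Sdf2l1 were the members with 1 sign on all 4 arrays and at least 1.2-fold, 1 upward and 2 downward, which 6.48% and 7.07% of all genes did.

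None of the genes of amino acid supply and one-carbon metabolism passed (0 higher, 0 lower). Asns, which makes asparagine and is a textbook ATF4 target, read 0.07, -0.01, -0.14 and 0.15, with a mean of 0.02 ± 0.02 (limma adjusted p = 0.931). Its set means were 0.03 and 0.01. In serine synthesis, Phgdh read -0.10 and Psat1 -0.23; in mitochondrial one-carbon metabolism, Shmt2 read -0.09 and Mthfd2 -0.23, and Mthfd2 was negative on all 4 arrays. The amino acid transporter Slc7a5 (LAT1) read 0.21, and Slc3a2, the heavy chain it pairs with, 0.00 (-0.0011). Chac1, which degrades glutathione, read 0.04 at a dim probe (mean log2 intensity 7.53).

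The lowest ATF4 target was Vldlr, a lipoprotein receptor. It read -0.67, -0.65, -0.36 and 0.04, so the stage_matched pair was lower than the age_matched pair, with a mean of -0.41 ± 0.35 (limma adjusted p = 0.104). The second probe read -0.36, and with median centring in place of the loess correction Vldlr passed at -0.51 (limma adjusted p = 0.0424). Its probe lies on chromosome 19, 9.76 Mb from the Btaf1 probe. Psat1, Slc3a2 and Syvn1 are on the same chromosome, at 21.1, 28.3 and 31.0 Mb. Psat1 read 0.13, -0.32, -0.10 and -0.62, with a mean of -0.23 ± 0.19 (limma adjusted p = 0.234). Slc3a2 read 0.08, 0.11, -0.25 and 0.06, and Syvn1 -0.22, 0.01, -0.17 and 0.44, so none of these 3 had 1 sign on all 4 arrays (0 of 3).

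Slc7a11, the cystine transporter xCT, and Nupr1, a stress-induced chromatin protein, could not be tested. The Nupr1 probe was well above background in 0 channels on 4 arrays. Of 4 Slc7a11 probes, 1 reached that level in the wild-type channel of 1 array and the others did so nowhere (0 arrays).

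**Figure D2:**
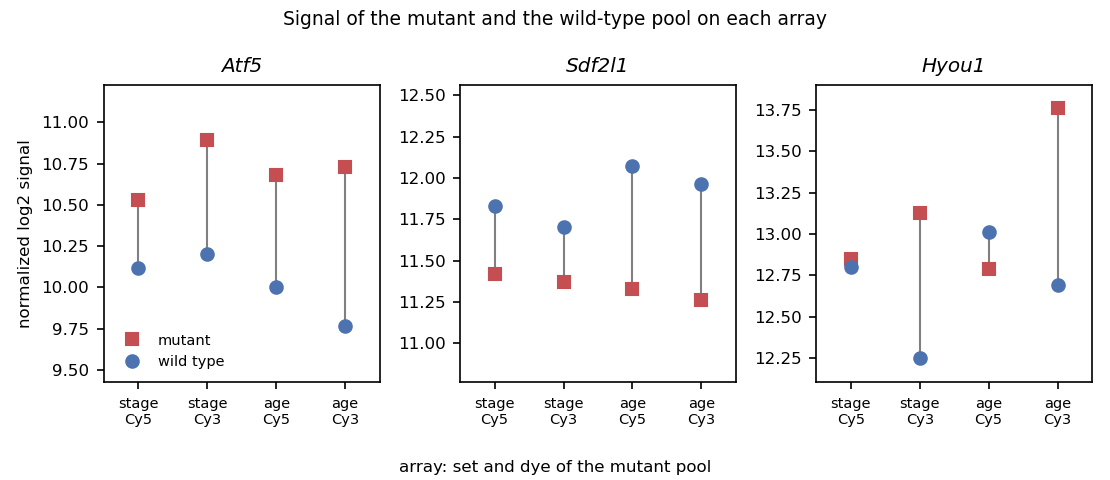
The normalized log2 signal (y axis) of the mutant pool (squares) and the wild-type pool (circles) is plotted for Atf5, Sdf2l1 and Hyou1 on each array (x axis: set and dye of the mutant). Mutant signal of Atf5 lies above and that of Sdf2l1 below the wild type on all 4 arrays, while the Hyou1 pools part clearly only with the mutant in Cy3.

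Among 12 ER chaperones and folding enzymes, 1 rose, 1 fell and 10 did not pass. The median was -0.08 and 8 of 12 were negative; with median centring it was -0.16 and with the median of each gene's probes -0.20. Sdf2l1, an ER protein of the BiP chaperone complex that ER stress induces, read -0.42, -0.33, -0.73 and -0.70. No array was positive (0 of 4), and within each set both dye orientations lay close together. In signal terms the mutant read 11.42, 11.37, 11.33 and 11.26 on the normalized log2 scale and the wild type 11.83, 11.7, 12.07 and 11.96, so the ranges did not overlap. The mean of -0.54 ± 0.24 (SD, n = 2; limma adjusted p = 0.0334) made it 1.46-fold lower in the mutant. Its call was lost without stage_matched replicate 1, age_matched replicate 1 or age_matched replicate 2 (limma adjusted p = 0.0642, 0.261 and 0.0664, at -0.52, -0.54 and -0.55). Its probe (A_51_P280446) lies on chromosome 16, 17130426 to 17130485 (mm9).

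Hyou1 (GRP170, an exchange factor that recharges the chaperone BiP with ATP) also passed, with a mean of 0.45 ± 0.03 (SD, n = 2; limma adjusted p = 0.0350). The single arrays, however, read 0.06, 0.88, -0.21 and 1.07. Both arrays with the mutant in Cy3 were high, and those with it in Cy5 averaged -0.08 against 0.97. The gap of 1.05 between orientations was the largest of the 39 members, and the test does not see it because each set mean holds 1 array of each kind. Gaps over 0.5 in size were found in 4 members, the others being Shmt2 (0.95), Eif2ak2 (-0.64) and Calr (0.57), and in 13.1% of all genes. Hyou1 lost its call with the processed signals (0.41; limma adjusted p = 0.0769) and with median centring (0.39; limma adjusted p = 0.102). It was not called without age_matched replicate 2 (0.13), stage_matched replicate 2 (0.24) or age_matched replicate 1 (0.77; limma adjusted p = 0.704, 0.273 and 0.187). Its other probe was not well above background on any array (0 of 4 in either channel).

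**Figure D3:**
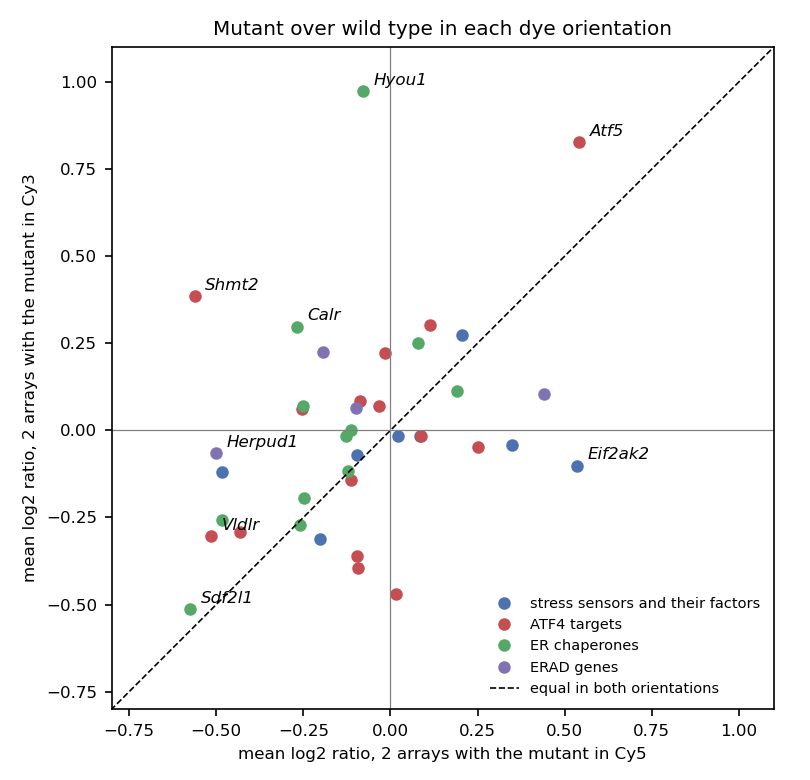
The mean log2 ratio over the 2 arrays with the mutant in Cy3 (y axis) is set against that over the 2 arrays with the mutant in Cy5 (x axis) for the 39 tested members, coloured by role; on the dashed line both are equal. Hyou1 lies at -0.08 and 0.97, far from the line, and Sdf2l1 close to it.

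None of the other chaperones and folding enzymes passed at its brightest probe. Hspa5, the gene of BiP and the most used reporter of ER stress, read -0.25, 0.00, -0.27 and -0.55, with a mean of -0.27 ± 0.20 (SD, n = 2; limma adjusted p = 0.175). The highest of the 4 arrays thus lay at 0.00. Pdia3, a disulfide isomerase for glycoproteins, read -0.77, 0.01, -0.20 and -0.52, at a mean of -0.37 ± 0.02 (limma adjusted p = 0.0596). Its single arrays spread far more than its set means. Pdia6 was negative on all 4 arrays at -0.20, -0.16, -0.30 and -0.23 (mean -0.22 ± 0.06; limma adjusted p = 0.199). Pdia4 read -0.09, Hsp90b1 (GRP94) -0.07 and Dnajb9 (ERdj4) -0.06. The lectin chaperones Canx and Calr read 0.16 and 0.01. Creld2, a secreted product of ER stress, was positive on all 4 arrays at 0.26, 0.11, 0.12 and 0.12 (mean 0.15 ± 0.05; limma adjusted p = 0.373).

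None of the 4 ERAD genes passed (0 higher, 0 lower), and their median was 0.00 (-0.0014). Sel1l, the scaffold of the HRD1 ligase, read 0.41, 0.36, 0.48 and -0.15 and had the highest mean, 0.27 ± 0.15 (limma adjusted p = 0.150), while its second tested probe read -0.30. Herpud1, which organises that complex, read -0.38, -0.15, -0.62 and 0.02 and had the lowest, -0.28 ± 0.03 (limma adjusted p = 0.118). Syvn1, the ligase HRD1 itself, read 0.01 and Edem1, which hands over misfolded glycoproteins, -0.02. On each of these genes at least 1 array opposed the others.

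Carriers of the 2 promoter elements described above did not share a direction beyond their counts. At their brightest probes, the 8 members with the ER stress element ran from -0.27 (Hspa5) to 0.16 (Canx), and 0 passed. Their median was -0.03, with 4 positive and 4 negative. Another probe each of Dnajc3, Hsp90b1 and Pdia6 was called lower, at -0.60, -0.56 and -0.49. The second Calr probe read -0.28, and the other Canx probes 0.01 and 0.05. Hyou1 had no upstream sequence to search. Of the 7 with the C/EBP-ATF element 5 were tested. They ran from -0.41 (Vldlr) to 0.04 (Chac1) with a median of -0.24, 3 were negative and 0 passed.

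Probes of 1 gene often gave different values. Of 17 members with more than 1 tested probe, 7 had probes of opposite sign. Several chaperones were lower at a dimmer probe than at the brightest. Dnajc3 (p58IPK, a co-chaperone that also inhibits eIF2 kinases) read -0.12 at its brightest probe and -0.60, -0.36 and -0.30 at the others. The -0.60 probe was lower on all 4 arrays and passed (limma adjusted p = 0.0174), and the mean log2 intensities of these 2 probes were 10.14 and 10.08. Hsp90b1 read -0.07 at the brightest and -0.56 at its second probe (limma adjusted p = 0.0444), and Pdia6 had -0.22 there against -0.21, -0.46 and -0.49 at the rest, the last with limma adjusted p = 0.0349. Of 66 tested member probes, 4 were called lower and 2 higher, each of a different member. Of all tested probes, 3.17% were called lower and 1.69% higher. When a gene was given the median of its probes, Dnajc3, Hsp90b1, Pdia3, Pdia6, Sdf2l1 and Vldlr were called lower, 6 of 39, with Atf5 and Hyou1 higher. That fit called 5.63% of all genes lower and 4.03% higher. The brightest probe had the highest ratio in 11 of the 17 members (64.7%) and in 60.3% of all 4857 genes with more than 1 tested probe.

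**Figure D4:**
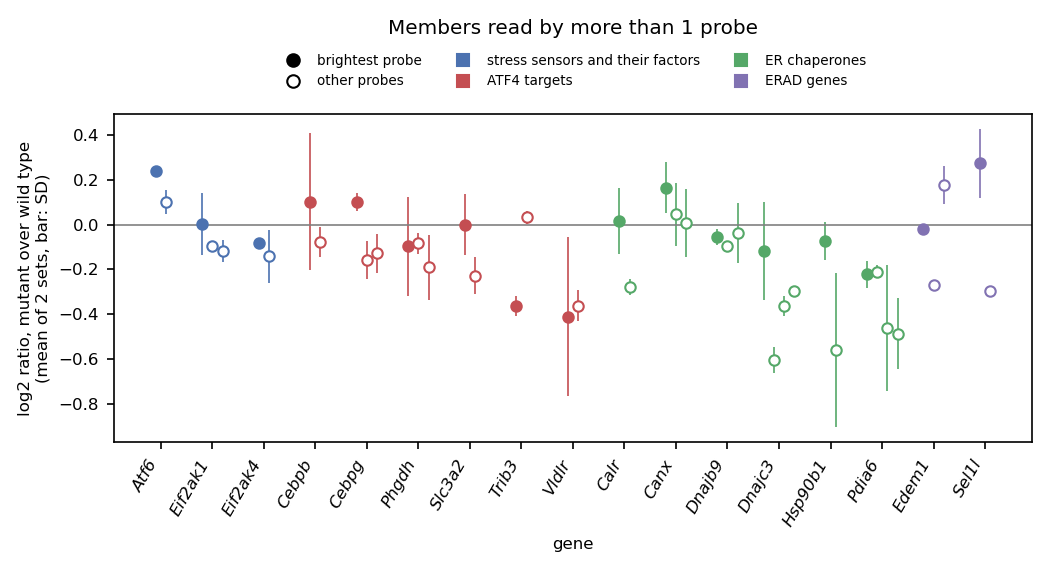
The log2 ratio of mutant over wild type (y axis, mean of 2 sets; bars are the SD between sets) is plotted for every tested probe of the 17 members with more than 1 (x axis), filled for the brightest probe and open for others, coloured by role. The probes of Dnajc3, Hsp90b1 and Pdia6 are all negative, whereas those of Sel1l, Trib3 and Calr fall on both sides of 0.

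No member differed past the threshold between the sets of pools. For the difference age_matched minus stage_matched, limma was fitted to all 4 arrays with set and dye as terms, so that its error is technical. It passed for 0 of 39 members by limma, with 5 at an unadjusted p under 0.05, and for 2.18% of all genes. In size the difference was greatest for Vldlr at 0.50 (limma adjusted p = 0.119), Pdia4 at -0.50 (limma adjusted p = 0.124) and Cebpb at 0.43 (limma adjusted p = 0.233). The second probes of Vldlr and Cebpb had the opposite sign, at -0.098 and -0.094. Both set means were positive in 11 members and negative in 17, and 11 had sets of opposite sign. ER chaperones had a median of 0.01 in stage_matched and -0.20 in age_matched pools, where Pdia4, a disulfide isomerase, went from 0.16 to -0.34. The ATF4 targets had -0.09 and -0.10.

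**Figure D5:**
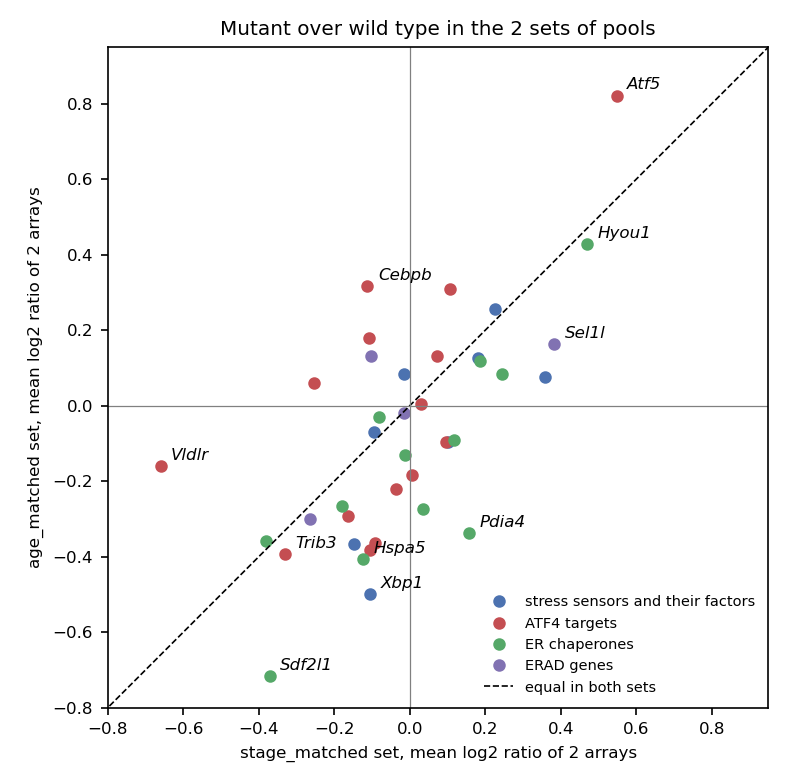
The mean log2 ratio of the age_matched arrays (y axis) is set against that of the stage_matched arrays (x axis) for the 39 tested members, coloured by role; on the dashed line both are equal. Atf5 and Hyou1 lie in the upper right and Sdf2l1 in the lower left, and Vldlr, Pdia4 and Cebpb lie farthest from the line.

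Beside the members, 84 other genes of these pathways were listed, and 76 were tested. Sil1 rose, 0 fell and 75 did not pass, beside 2.14% of all genes called higher and 2.83% lower. The median was -0.02, against 0.02 for all genes. Sil1, like Hyou1 an exchange factor for BiP, read 0.36, 0.86, 0.35 and 0.66. All 4 arrays were positive, with a mean of 0.56 ± 0.07 (SD, n = 2; limma adjusted p = 0.0206), and values with the mutant in Cy3 were the higher in both sets. Its call was lost without background correction (limma adjusted p = 0.0597) and without age_matched replicate 1 or replicate 2 (limma adjusted p = 0.175 and 0.0816). Sesn2, an amino acid sensor induced by both ATF4 and p53, read 0.11, 0.51, 0.44 and 0.57, with a mean of 0.41 ± 0.14 (limma adjusted p = 0.0541), and its second probe read -0.05. At the low end, Fkbp2, an ER prolyl isomerase, had -0.43, -0.06, -0.52 and -0.36 (mean -0.34 ± 0.13; limma adjusted p = 0.0832), and P4hb, the abundant disulfide isomerase PDI, -0.15, -0.14, -0.57 and -0.50 (mean -0.34 ± 0.27; limma adjusted p = 0.128). Aminoacyl-tRNA synthetases, many of which ATF4 induces, were negative in 9 of 12 (75%, against 46% of all genes). Their median was -0.12, and 0 passed. Medians were 0.02 for 24 other genes of the integrated stress response, -0.02 for 28 other ER folding genes and 0.05 for 12 other ERAD genes.

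Markers of several tissues differed between the genotypes. Of 18 markers of visceral endoderm and yolk sac, 15 were lower in the mutant, with a median of -0.93. Their summed signal ran from 46100 to 52300 in the mutant and from 90800 to 103000 in the wild type over the 4 arrays, and 0 of the 18 were below background everywhere. All 13 heart muscle markers were negative and 11 were called, with sums of 54200 to 80800 against 136000 to 156000. Among 6 tested of 8 primitive red cell markers, 2 were lower, with sums of 3520 to 8540 against 15200 to 18300; Gata1 was not above background on any array. Of 4 tested trophoblast markers 0 passed (sums 1290 to 1760 against 1380 to 1640), with Tpbpa, Gcm1 and Psg17 below background. Of 4 tested markers of maternal decidua and blood, 1 was lower (sums 1500 to 5620 against 3250 to 4210), with Ptprc below background. The lower one was the globin gene Hba-a1, at -0.75, -1.16, 0.18 and -0.82 (limma adjusted p = 0.046). Whether its signal came from maternal or embryonic cells was not tested. The sets differed here too. The heart muscle median was -0.77 in stage_matched and -1.76 in age_matched pools, and 12 of 13 markers differed between the sets (limma adjusted p under the threshold). That of the maternal markers was -0.95 and 0.27, with opposite signs, and 3 of 4 differed. In primitive red cells it was -0.38 and -0.73, with 3 of 6, and in trophoblast -0.30 and 0.14, with 1 of 4. The part of these tissues in the values of Sdf2l1, Atf5 and the chaperones, or in the differences between sets, was not tested.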

How the data were processed

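The genes and lists were chosen with earlier results of these data known. Per the file headers, the scanner's mean spot and median background intensity of each dye is not normalized, and its processed intensity is background-subtracted, detrended and dye-normalized. The authors' deposited table holds the scanner's log10 ratio, turned to mutant over wild type (largest difference 5e-06, median 0 on each array). The labels name Feature Extraction 9.5.3 and the file headers 10.5.1.1.

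With limma 3.58.1 in R 4.3.3, mean intensities were corrected by normexp (offset 50) and loess within arrays, with control and flagged spots at weight 0. Flagged spots were left out, dye-exchanged arrays turned and spots of a probe averaged. Of 41174 probes, 21966 were well above background in the mutant or the wild-type channel on all 4 arrays; 36 of these had a flagged spot, leaving 21930. Both arrays of a set were averaged, and limma tested the 2 means (two-sided, 1 residual and 7.2 prior degrees of freedom, Benjamini-Hochberg). The calculations were tested on simulated data.

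Names outside the members follow the accession in RefSeq (GRCm38.p6; 25090 probes), else the file's symbol (9220). Probe positions are mm9; promoters are GRCm38.p6. Values per array are given for members past the threshold, with 1 sign and at least 1.2-fold, at the ends of each group or on chromosome 19, and for others picked after their values were seen. Protein endings were not analysed here. Alternatives covered background, dye correction, signals, filters, flagged spots, probe choice, single arrays and single sets.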

Additional observations from a re-analysis of the deposited data

Results flagged for a closer look

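Between the sets of pools, 0 of 39 members and 2 of 76 other pathway genes differed past the threshold, beside 2.18% of all genes. These counts come from the fit of all 4 arrays, whose error is technical. Slc7a3, a cationic amino acid transporter that ATF4 induces, read -0.0025 and 0.37 in the stage_matched and 0.82 and 0.95 in the age_matched set, so that the difference age_matched minus stage_matched was 0.70 (limma adjusted p = 0.00753). Ddit4 (REDD1, an inhibitor of mTOR induced by stress, hypoxia and p53) read -0.34 and -0.23 in the stage_matched and 0.23 and 0.46 in the age_matched set, a difference of 0.63 (limma adjusted p = 0.0226). Neither passed in the mean of both sets, at 0.53 ± 0.49 and 0.03 ± 0.44 (SD, n = 2; limma adjusted p = 0.0853 and 0.927). The tissue markers differed between the sets in the same fit: 12 of 13 for heart muscle, 3 of 6 for primitive red cells, 3 of 4 for maternal decidua and blood and 1 of 4 for trophoblast. Their part in the values of Slc7a3 and Ddit4 was not tested.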

How the results depend on the processing

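Members called higher numbered 2 and called lower 1. Without background correction they were 0 and 0, with plain subtraction 2 and 3, with median centring 1 and 2, and 1 and 2 again from the processed signals and from the authors' log ratios. Testing dim probes too gave 2 and 0. The median of a gene's probes gave 2 and 6, in a fit that called 4.03% of all genes higher and 5.63% lower. Leaving out 1 array gave 0 to 2 higher and 0 to 3 lower. Among all genes the shares higher and lower went from 2.14% and 2.83% to 0.139% and 0.278% without background correction, 4.12% and 4.97% with plain subtraction, 0.762% and 3.41% with median centring, 3.94% and 3.85% with processed signals and 0.771% and 1.07% with dim probes. Atf5 kept its call except without background correction (0.65; limma adjusted p = 0.0597) and without age_matched replicate 1 (0.76; limma adjusted p = 0.160), and Sdf2l1 lost it there, with dim probes tested too (limma adjusted p = 0.0603), without stage_matched replicate 1 (limma adjusted p = 0.0642) and without age_matched replicate 2 (limma adjusted p = 0.0664).

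Other pathway genes called higher and lower numbered 1 and 0. They were 0 higher without background correction, 4 and 2 with plain subtraction, 2 higher with processed signals or the authors' log ratios, 3 and 3 with the median of probes, and 0 to 2 of each without 1 array. The ATF4 target median of -0.09 was -0.13 with median centring, -0.11 with the median of probes, -0.094 with processed signals and the authors' log ratios, -0.092 and -0.097 in the stage_matched and age_matched set alone, and -0.11 to 0.0027 without 1 array. The sensor median of 0.02 was 0.057 with processed signals and the authors' log ratios, -0.064 with median centring, -0.016 with the median of probes and -0.015 to 0.047 without 1 array. The ERAD median of 0.00 was -0.066 with median centring and -0.10 to 0.075 without 1 array. The chaperone median of -0.08 was -0.16 with median centring, -0.055 with processed signals, -0.20 with the median of probes and -0.16 to 0.0038 without 1 array. Median centring moved the median of all genes from 0.02 to -0.06. Causes were not tested. Each ratio pairs a mutant with a wild-type pool. Replicate numbers mark the dye orientation, which was a term in the fit of the set difference. They pair no pools across the sets, so no paired analysis of pools by replicate number was made.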
